A study of Mus musculus with 6 samples.

Results

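The Notch genes examined here were 3 receptors (Notch1, Notch2 and Notch3), 3 ligands (Dll1, Dll3 and Jag1), the nuclear partner Rbpj and 3 transcriptional targets (Hes1, Hes5 and Hey1). They were chosen by name for their place in the pathway, and are 10 of the 22048 genes in the deposited expression table and 10 of the 13952 genes that had enough reads to be tested. Their RNA was measured by RNA-Seq in neural stem/progenitor cells (NSC/NPCs) from the hypothalamus of male C57BL/6 mouse fetuses, grown as floating neurospheres with EGF and bFGF and harvested at first passage. Dams of 8 weeks received daily gavage between E5.5 and E11.5 of estradiol valerate, an ester that releases estradiol, at a dose of 100 μg/kg/d (high estradiol, HE), or corn oil alone (control, NC, which the sample labels describe as untreated), and cells were taken at E14.5. There were 3 HE and 3 NC samples, each holding cells from 2 mice. The sources tell neither how many dams the samples of a group came from nor whether the 2 mice of a sample were littermates. Samples of a group may therefore share a litter, and the spread between them may be partly technical. In that case the samples would not be independent, as the standard errors and p-values below take them to be.

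Notch receptors are single-pass membrane proteins that bind Delta-like (Dll) and Jagged (Jag) ligands on neighbouring cells. Binding leads to cleavage by an ADAM protease and then by γ-secretase, and the freed intracellular domain enters the nucleus, joins Rbpj and a Mastermind-like coactivator, and switches on Hes and Hey genes. These encode repressors that hold back proneural genes, and in the developing brain the pathway is known for keeping progenitors undifferentiated while their neighbours become neurons.

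In HE samples all 3 receptors and Rbpj had lower levels than in every NC sample, as did 17.9% of all tested genes, and none passed the test once it was adjusted over all genes. The 4 became 3 when samples were scaled by the median of ratios between genes, against 16.4% of all tested genes in that setting. They became 1 when a trend with gene length was removed, against 15.7% of all tested genes. Mean Notch1 was 27.6 ± 6.83 RPKM in HE against 40.1 ± 4.85 RPKM in NC (SD, n = 3 each). Levels of the ligands and targets overlapped between the groups, and Jag1 and Hes1 had higher means in HE. Much of the difference in ligands and targets came from a single sample, HE3, in which Dll1, Dll3, Rbpj, Hes5 and Hey1 were lowest and Jag1 and Hes1 were highest. RPKM are reads scaled to the gene length in the deposited table and to the sample's total, so comparisons between different genes depend on those lengths.

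Gene counts summed to between 16078675 reads (HE3) and 19137059 reads (NC2), and 1 read on a gene of 1 kilobase was worth 0.0523 to 0.0622 RPKM. HE3 stood apart from the other 5 samples: it had the lowest or highest value in 68.9% of all tested genes, and received a weight of 0.158 against 0.852 to 2.87 for the others when limma estimated the quality of each sample. Results of the members are therefore given with and without it, and those of other pathway genes where its absence moved a printed log2 fold change by over 1.5 times. Sox2 (97.3 to 209 RPKM) and Nes (154 to 247 RPKM), which mark neural progenitors, were abundant in every sample, and 4 Y-linked genes were detected in all 6. Most genes that mark the hypothalamus were low, with Nkx2-1 at 1.03 to 3.34 RPKM and Otp and Sim1 under 0.1 RPKM on average. Because these are bulk samples, fewer cells expressing a gene and less RNA per cell cannot be told apart.

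Upstream sequences of members were taken from RefSeq (GRCm38.p6), which gave an entry for 8 of the 10. There was none for Hes1 and Hey1, so these targets were not searched. The windows of 250 bases before each annotated start were searched on both strands for the core that Rbpj binds (TGGGAA) and for the N-box (CACNAG) bound by Hes repressors. Those 8 members had 10 windows. The Rbpj core was in the windows of 2 of the 8, Hes5 and Rbpj, and in 21.6% of all 32851 windows. The N-box was in those of 3 of the 8, all receptors, and in 36.7% of all windows. The percentages count windows, not genes. No window of a member held both motifs. The 4 stretches of 30 bases that follow show the Rbpj core, in capitals, before the starts of the target Hes5 and of Rbpj itself, each written 5′ to 3′ on the gene's strand (+). The match reads TTCCCA where it lies on the opposite strand.
Hes5, chr4:154960685-154960714: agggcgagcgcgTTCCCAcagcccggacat
Hes5, chr4:154960829-154960858: ggccgccgagtgTGGGAAcggccgcggcgc
Rbpj, chr5:53590185-53590214: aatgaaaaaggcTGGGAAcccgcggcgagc
Rbpj, chr5:53590269-53590298: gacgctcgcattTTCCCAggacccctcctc
The Hes5 matches began 226 and 82 bases before an annotated start at 154960923, and those of Rbpj 149 and 65 bases before one at 53590346. Both starts, and the matches before them, lie inside the full extents of these genes given with their values, since other transcripts begin further upstream. Notch1 and Jag1 are shown because they had the largest mean differences between the groups, in opposite directions. Each is the whole window, written 5′ to 3′ on the gene's strand (-), with the N-box in capitals.
Notch1, chr2:26503823-26504072: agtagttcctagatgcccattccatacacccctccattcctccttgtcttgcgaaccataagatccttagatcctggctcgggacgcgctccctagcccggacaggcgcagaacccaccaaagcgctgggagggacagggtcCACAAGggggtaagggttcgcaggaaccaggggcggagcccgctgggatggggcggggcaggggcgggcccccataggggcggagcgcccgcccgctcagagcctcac
Jag1, chr2:137116521-137116770: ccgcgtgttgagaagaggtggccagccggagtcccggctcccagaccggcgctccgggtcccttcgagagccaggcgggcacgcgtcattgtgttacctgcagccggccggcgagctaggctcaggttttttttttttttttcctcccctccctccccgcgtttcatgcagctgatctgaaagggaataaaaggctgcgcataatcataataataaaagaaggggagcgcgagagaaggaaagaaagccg
The Jag1 window held neither motif in these letters. A match is a description of the sequence, and no binding was measured here.

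Among the members, Hey1 had the highest mean over the 6 samples (39.6 RPKM), followed by Notch1 (33.9 RPKM), Hes1 (21.4 RPKM), Notch3 (20.2 RPKM), Notch2 (19.5 RPKM), Dll1 (14.0 RPKM), Jag1 (11.1 RPKM), Rbpj (4.81 RPKM), Hes5 (4.54 RPKM) and Dll3 (3.58 RPKM). Only 1 step in this order separated neighbours whose ranges did not overlap, that from Jag1 (6.15 to 21.6 RPKM) to Rbpj (2.48 to 5.80 RPKM). Every other pair of neighbours overlapped, although Notch2 was above Dll1 within each of the 6 samples. The receptors thus each had several times the RPKM of the transcription factor through which they act, and Hey1 had far more than Hes5. These comparisons rest on the gene lengths in the deposited table, such as 12750 bases for Rbpj. The sources do not say how those lengths were defined.

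**Figure D1:**
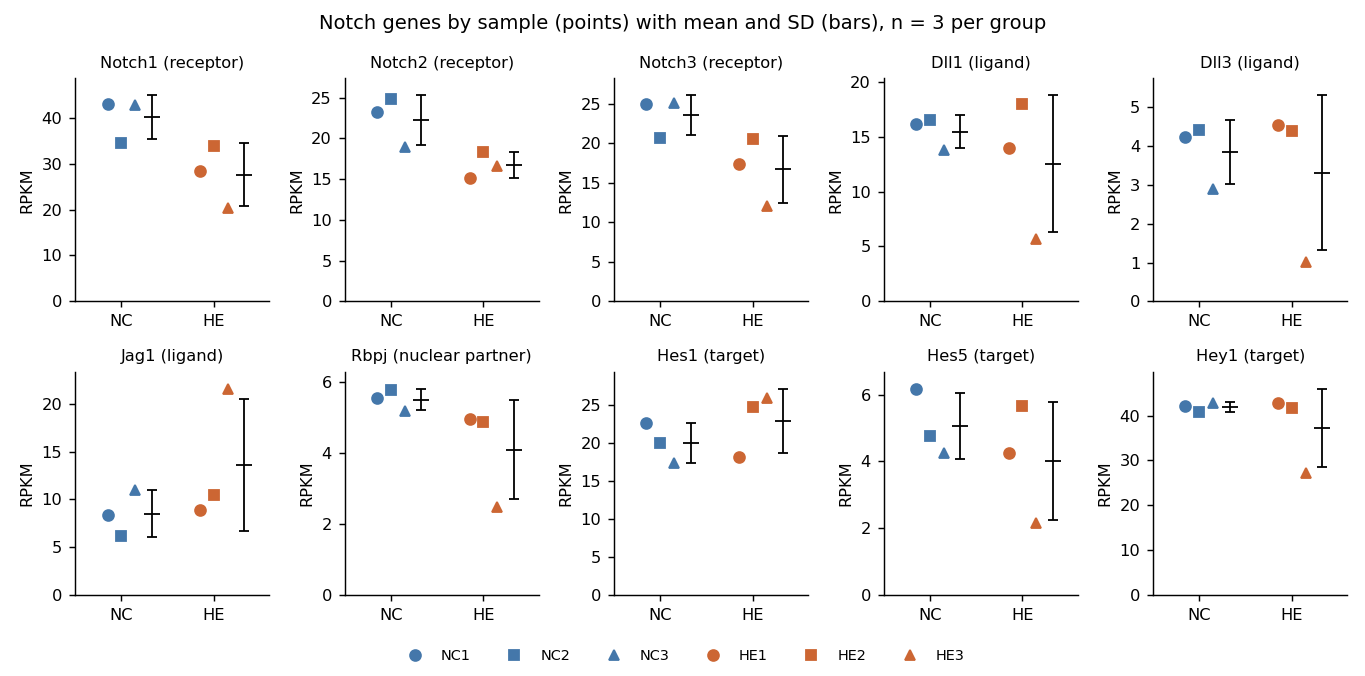
RPKM of the 10 Notch genes (vertical axes, each starting at 0) in 3 NC samples (blue) and 3 HE samples (orange), with circles, squares and triangles for samples 1, 2 and 3 and black bars for the mean and SD. All HE points lie below all NC points for Notch1, Notch2, Notch3 and Rbpj, and HE3 (orange triangle) is the lowest point for Dll1, Dll3, Hes5 and Hey1 and the highest for Jag1 and Hes1.

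Notch1 (ENSMUSG00000026923, chromosome 2, 26457902 to 26503822) encodes the receptor best known for maintaining neural progenitors. Its level was 43.1, 34.5 and 42.8 RPKM in NC1, NC2 and NC3 and 28.5, 34.0 and 20.4 RPKM in HE1, HE2 and HE3, from 4667 to 11533 reads per sample. The groups did not overlap, but HE2 lay only just under NC2. The log2 fold change of HE against NC, on log2(RPKM + 0.1), was -0.56 (SE 0.20, 95% confidence interval -1.03 to -0.09), with an unadjusted p of 0.025 and a Benjamini-Hochberg adjusted p of 0.21 in limma. Without HE3 it was -0.36 (adjusted p 0.226 in limma).

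Notch2 (ENSMUSG00000027878, chromosome 3, 98013538 to 98150367) is a paralog of Notch1 that is also expressed in neural progenitors. It was measured at 23.2, 24.8 and 18.9 RPKM in NC1, NC2 and NC3 and at 15.2, 18.3 and 16.7 RPKM in HE1, HE2 and HE3. All 3 HE samples lay below the lowest NC sample, NC3, and here HE1 rather than HE3 was lowest. On the log2 scale HE minus NC was -0.41 (SE 0.14), with an unadjusted p of 0.0219 and an adjusted p of 0.205 in limma, and it was also -0.41 without HE3.

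Notch3 (ENSMUSG00000038146, chromosome 17, 32120820 to 32166896) is a receptor best known from the mural cells of vessels and is present in neural progenitors too. Its values were 25.0, 20.64 and 25.1 RPKM in NC1, NC2 and NC3 and 17.4, 20.56 and 12.1 RPKM in HE1, HE2 and HE3. NC2 and HE2 were thus nearly equal, and the groups were separate by the narrowest margin of the receptors. HE minus NC was, on the log2 scale, -0.52 (SE 0.20, adjusted p 0.223 in limma) and -0.31 without HE3. When samples were scaled by the median of ratios between genes in place of their totals, NC2 (20.004) and HE2 (20.103) changed order and the groups overlapped.

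Notch1 and Notch3 kept a similar proportion to each other, while Notch2 varied. Summed RPKM of Notch1 to Notch4 was 80.5 to 91.8 in NC and 49.5 to 73.2 in HE. Each of these receptors alone was lower in every HE sample, so their sum had to be as well and adds no further difference. With the length trend removed (below), Notch1, Notch2 and Notch3 each overlapped, and the sum was not computed in that setting. Notch1 made up 41.2% to 49.0% of this sum in the 6 samples, and the ratio of Notch1 to Notch3 stayed between 1.64 and 1.72. The share of Notch2 ranged from 21.6% in NC3 to 33.7% in HE3, the latter being the sample with the lowest Notch1 and Notch3.

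Rbpj (ENSMUSG00000039191, chromosome 5, 53555779 to 53657445) is the DNA-binding protein through which all Notch receptors act, and represses targets when no Notch domain is bound. It had 5.55, 5.80 and 5.19 RPKM in NC1, NC2 and NC3 and 4.95, 4.87 and 2.48 RPKM in HE1, HE2 and HE3. The groups did not overlap, with HE1 and HE2 close under the NC samples and HE3 well below all of them. The log2 fold change of -0.48 (SE 0.27, adjusted p 0.319 in limma) became -0.16 without HE3. The mouse genome also holds annotated pseudogenes of Rbpj, and reads shared with them could not be told apart in these counts.

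**Figure D2:**
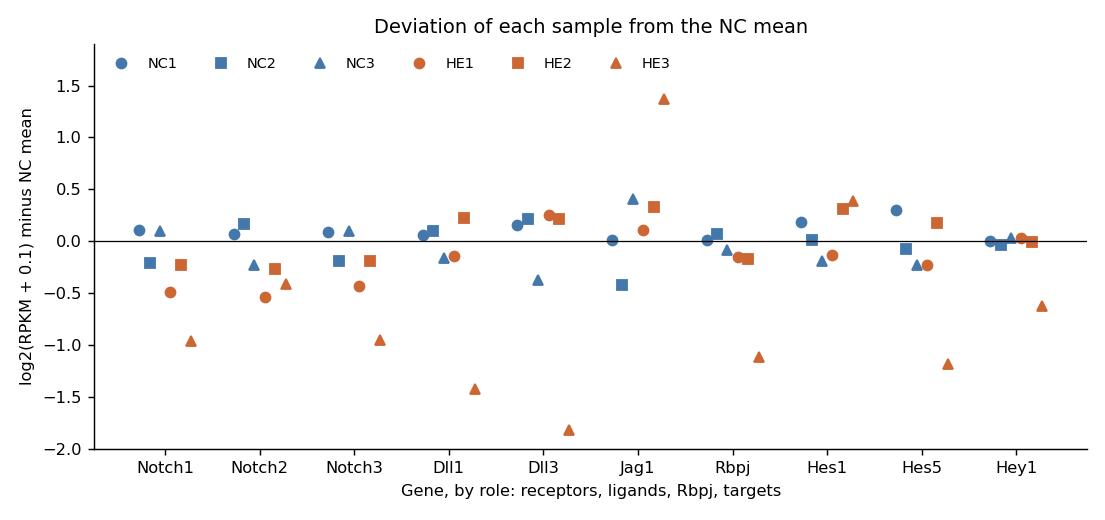
Difference of each sample from the NC mean on log2(RPKM + 0.1) (vertical axis) for the 10 Notch genes ordered by role (horizontal axis), NC in blue and HE in orange. HE1 and HE2 lie below 0 for the 3 receptors and Rbpj, both above 0 for Dll3 and Jag1, and 1 on each side of 0 for the rest. HE3 departs most for every gene but Notch2, where HE1 does, and ranges from -1.82 for Dll3 to 1.37 for Jag1.

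Dll1 (ENSMUSG00000014773, chromosome 17, 15367354 to 15376932) is a ligand that differentiating cells present to progenitors. Its values in NC1, NC2 and NC3 were 16.1, 16.5 and 13.8 RPKM, and those in HE1, HE2 and HE3 were 14.0, 18.0 and 5.69 RPKM. HE1 and HE2 were within or above the NC range and HE3 alone was far below it. Its log2 fold change was -0.45 (SE 0.39, 95% confidence interval -1.36 to 0.46, adjusted p 0.494 in limma), and its sign turned without HE3 (0.038, 95% confidence interval -0.30 to 0.38).

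Dll3 (ENSMUSG00000003436, chromosome 7, 28293555 to 28301785) is a divergent ligand of the family that does not activate receptors on neighbouring cells. It was found at 4.23, 4.42 and 2.91 RPKM in NC1, NC2 and NC3 and at 4.55, 4.397 and 1.00 RPKM in HE1, HE2 and HE3, the last from 46 reads. HE3 was again the only HE sample under the NC range. Its log2 fold change was -0.45 (SE 0.54, adjusted p 0.628 in limma) with HE3 and 0.23 without it.

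Jag1 (ENSMUSG00000027276, chromosome 2, 137081451 to 137116520) encodes the main Jagged ligand of neural progenitors. It stood at 8.36, 6.15 and 11.03 RPKM in NC1, NC2 and NC3 and at 8.94, 10.4 and 21.6 RPKM in HE1, HE2 and HE3. HE1 and HE2 lay within the NC range and HE3 was far above the highest NC sample. Its log2 fold change was 0.60 (SE 0.36, 95% confidence interval -0.23 to 1.44, adjusted p 0.338 in limma) and 0.22 without HE3.

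The make-up of the ligands separated HE3 from the other samples more than it separated the groups. Summed RPKM of the 5 ligands of the Delta-like and Jagged families was similar in all samples, at 29.2 to 37.1. Jag1 made up 20.2% to 35.0% of this sum in 5 samples and 73.9% in HE3, and Dll1 43.8% to 54.1% in 5 samples and 19.5% in HE3. The ratio of Jag1 to Dll1 was 0.373 to 0.8003 in 5 samples and 3.79 in HE3.

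**Figure D3:**
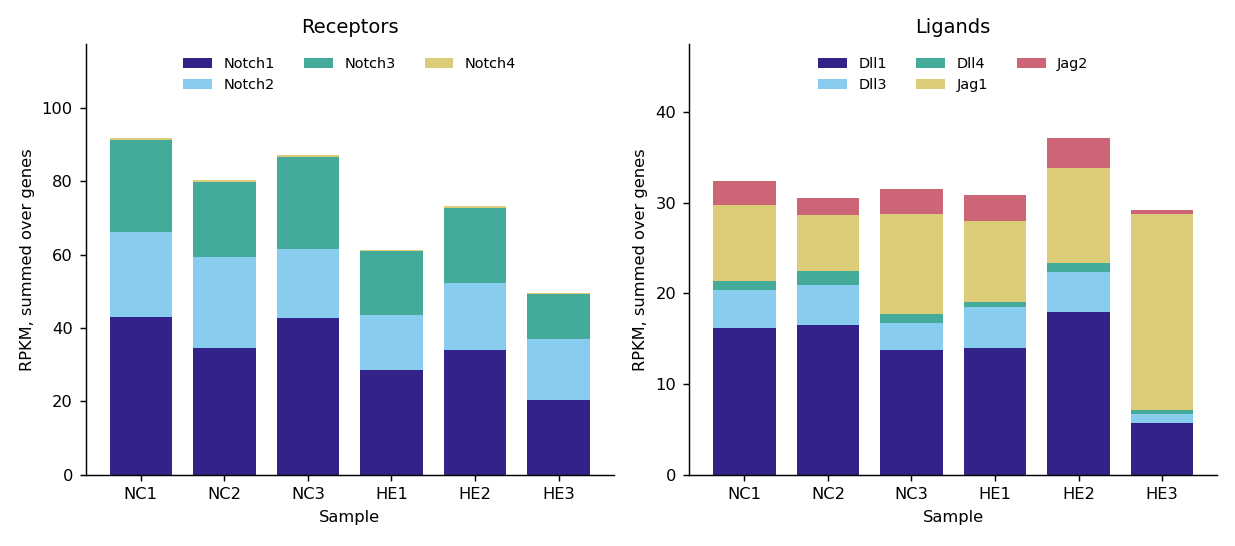
RPKM of the 4 Notch receptors (left) and the 5 Delta-like and Jagged ligands (right), stacked for each of the 6 samples (horizontal axis). The summed receptors are between 80.5 and 91.8 in NC and between 49.5 and 73.2 in HE, while the summed ligands are alike in all samples and only HE3 is mostly Jag1.

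Hes1 (ENSMUSG00000022528, chromosome 16, 30065357 to 30067796) encodes a repressor whose level oscillates in dividing neural progenitors. It had 22.5, 20.01 and 17.4 RPKM in NC1, NC2 and NC3 and 18.1, 24.7 and 25.9 RPKM in HE1, HE2 and HE3. HE2 and HE3 were above the NC range and HE1 within it. Hes1 had a log2 fold change of 0.19 (SE 0.17, 95% confidence interval -0.21 to 0.59, adjusted p 0.515 in limma), and of 0.09 without HE3.

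Hes5 (ENSMUSG00000048001, chromosome 4, 154960626 to 154962372) is a target that depends closely on Notch in neural stem cells. Its level was low, at 6.18, 4.75 and 4.26 RPKM in NC1, NC2 and NC3 and 4.26, 5.65 and 2.14 RPKM in HE1, HE2 and HE3, and it rested on 47 to 158 reads per sample. The groups overlapped, with only HE3 under the NC range. The log2 fold change was -0.41 (SE 0.34, adjusted p 0.479 in limma) and -0.026 without HE3.

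Hey1 (ENSMUSG00000040289, chromosome 3, 8663359 to 8667038), a related repressor, was the steadiest of the members outside HE3. Its values were 42.1, 40.8 and 42.8 RPKM in NC1, NC2 and NC3 and 42.8, 41.7 and 27.2 RPKM in HE1, HE2 and HE3. HE1 and HE2 were thus level with NC and HE3 far below. HE minus NC for Hey1 was, on the log2 scale, -0.20 (SE 0.18, adjusted p 0.517 in limma) and 0.013 without HE3, with a 95% confidence interval of -0.18 to 0.20 in the latter.

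The 3 targets did not follow a common course. The ratio of Hes1 to Hes5 RPKM was 3.65 to 4.36 in 5 samples and 12.1 in HE3. The ratio of Hes1 to Notch1 RPKM was 0.406 to 0.579 in NC and 0.636 to 1.27 in HE, without overlap between the groups. It sets a gene of 2037 bases over one of 14232 bases, and differences between the groups moved with gene length (below). Hes1 itself overlapped, and so did Notch1 once the length trend was removed. The share of other gene pairs with separate ratios was not computed. With 3 samples against 3, an exact permutation test (two-sided) has 20 assignments and cannot give a p below 0.1, which was reached by Notch1, Notch2, Notch3 and Rbpj, and the other 6 members had p of 0.3 to 0.9.

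At an adjusted p under 0.05 in limma, 0 of the 10 members and 0.0% of the 13952 tested genes were called. The smallest adjusted p of any gene was 0.148, and 2858 genes had an unadjusted p under 0.05. At that unadjusted level 3 members, the receptors, were lower in HE against 11.8% of all tested genes, and 0 were higher against 8.68%. The 3 became 0 without NC1, 2 without NC2, 1 without NC3 and 1 without HE1. The 2858 genes of either direction over the whole table became 1342 without NC1, 1638 without NC2, 2299 without NC3 and 3107 without HE1. The HE values lay wholly below the NC values for 4 members against 17.9% of tested genes, and wholly above for 0 members against 14.8%. The median log2 fold change was -0.43 over the 10 members, 8 of which were lower in HE, and -0.06 over all tested genes, 56.2% of which were lower.

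Receptors and Rbpj are long genes, and differences between HE and NC moved with gene length over the whole table. With the tested genes in 10 bins of length as given in the table, the median log2 fold change went from 0.10 in the bin of the shortest genes to -0.15 in that of the longest, and the median deviation of HE3 from the NC mean went from 0.11 to -0.35. In the bin of the longest genes, which holds Notch1 (14232 bases), Rbpj (12750 bases) and Notch2 (10782 bases), 25.0% of genes had HE values wholly below NC, and in the bin of Notch3 (8044 bases) 22.2% had, against 9.24% of the shortest. When the trend with length was removed from each sample, an alternative chosen after seeing the data, the log2 fold changes were -0.40 for Notch1 (unadjusted p 0.0292 in limma), -0.27 for Notch2 (unadjusted p 0.125 in limma), -0.41 for Notch3 (unadjusted p 0.0355 in limma) and -0.33 for Rbpj. After this step only Rbpj still had separate groups, since the values of each receptor then overlapped. Over all tested genes, 15.7% then had HE values wholly below NC. The cause of the trend with length was not tested.

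**Figure D4:**
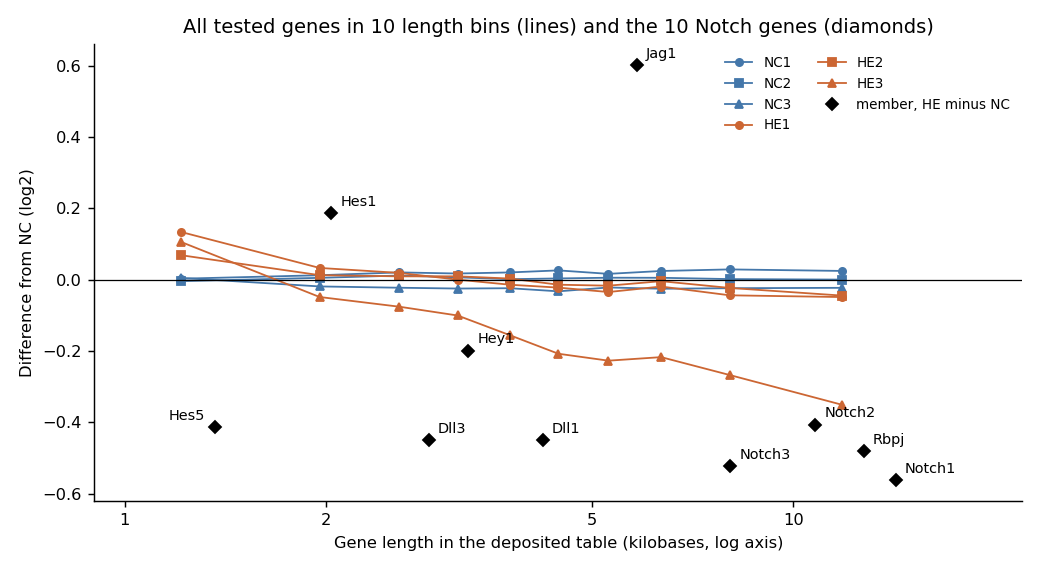
Median difference from the NC mean (log2, vertical axis) of all tested genes in 10 bins of gene length (horizontal log axis, kilobases), as 1 line per sample, with the log2 fold change of HE against NC of the 10 Notch genes as diamonds. The line of HE3 goes from 0.11 in the shortest bin to -0.35 in the longest, and Notch1, Notch2, Notch3 and Rbpj lie under the lines of all 6 samples at the long end.

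The rest of the pathway was described from a list of 66 other genes grouped by role, of which 59 were tested. None was called, 39 were lower and 20 higher in HE (56.2% of all tested genes were lower), and their median log2 fold change was -0.15. At an unadjusted p under 0.05 in limma, 11 were lower, against 11.8% of all tested genes, and 1 was higher, against 8.68%. The 11 became 4 without NC1 and 4 without NC2. Over all tested genes, those of either direction at that level went from 2858 to 1342 without NC1 and to 1638 without NC2. The HE values were wholly below NC for 15, against 17.9% of all tested genes, and wholly above for 5, against 14.8%. Adjusted p-values of all genes named next were 0.195 or more in limma.

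Of the remaining receptor and ligands, Notch4 was low, at 0.456 to 0.499 RPKM in NC and 0.301 to 0.358 RPKM in HE, and Dll4 had 1.04 to 1.57 RPKM in NC and 0.501 to 1.02 RPKM in HE. Both are known mainly from endothelium, and in both the groups were separate. Summed RPKM of 8 endothelial markers was 2.47 to 3.43 in NC and 4.17 to 5.26 in HE, a separation that rested on Cdh5, since without it the sum overlapped (1.76 to 3.09 in NC, 2.22 to 2.78 in HE). The markers Pecam1, Tek, Tie1 and Emcn were under 0.1 RPKM on average, and Tie1 and Emcn were at 0 in some samples. The part of endothelial cells in these values was not tested. Jag2 overlapped between the groups and was lowest in HE3 (0.430 RPKM against 1.86 to 3.30 RPKM in the other 5 samples). Dner, a transmembrane ligand of Notch in neural cells, was the 1 pathway gene higher at that level: it had 3.23, 5.24 and 7.16 RPKM in NC1, NC2 and NC3 and 9.83, 15.2 and 19.1 RPKM in HE1, HE2 and HE3, a log2 fold change of 1.498 (SE 0.34).

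Among other Hes and Hey genes, Hes6, which counteracts Hes1, was the most abundant, at 49.5 to 71.8 RPKM in NC and 59.5 to 67.8 RPKM in HE, with a log2 fold change of 0.02 (SE 0.16, and 0.08 without HE3). Hey2 (3.27 to 6.48 RPKM over the 6 samples) and the direct target Nrarp (0.981 to 1.69 RPKM) also overlapped between the groups. The overlap of Hey2 came from HE3 (3.27 RPKM), since HE1 (6.48 RPKM) and HE2 (6.19 RPKM) were above NC (4.72 to 5.73 RPKM). Its log2 fold change was -0.03, and 0.28 without HE3. Hes7, best known from somite segmentation, had a log2 fold change of -1.18 (SE 0.36) but only 3 to 26 reads per sample. Heyl was near the limit of detection, at 0.073 to 0.208 RPKM, and its groups were separate with HE higher.

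Several genes of the nuclear machinery were among the lower ones. Tle3, a Groucho-type corepressor that Hes proteins recruit, had 18.4, 16.02 and 15.2 RPKM in NC1, NC2 and NC3 and 7.53, 8.09 and 4.58 RPKM in HE1, HE2 and HE3. Its log2 fold change was -1.32 (SE 0.22), and that of its paralog Tle1 was -0.91 (SE 0.24), while Tle2 and Tle4 overlapped between the groups. The coactivator Maml1 (-0.65, SE 0.22) and the acetyltransferases Ep300 (-0.64, SE 0.24) and Crebbp (-0.56, SE 0.21), which join the Notch complex, had log2 fold changes close to that of Notch1, and without HE3 Ep300 was at -0.38 and Crebbp at -0.36. Maml2 overlapped between the groups (0.05, SE 0.14, and 0.09 without HE3). Several of these are long genes too. Ep300 (14273 bases), Crebbp (13540 bases) and Tle3 (11653 bases) lie in the bin of the longest genes, where 25.0% had HE wholly below NC. That share was 22.2% in the bin of Tle1 (8711 bases) and 20.8% in that of Maml1 (5528 bases). The part of gene length in their differences was not tested.

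Of the enzymes that process receptors, Furin, the convertase that cuts Notch on its way to the surface, had 3.93, 3.93 and 3.94 RPKM in NC1, NC2 and NC3 and 2.20, 2.43 and 1.98 RPKM in HE1, HE2 and HE3. This was the tightest NC group of the genes named, and the log2 fold change was -0.81 (SE 0.15). Furin has 9178 bases, and in its bin of length 22.2% of genes had HE wholly below NC. The γ-secretase subunit Psen2 was -0.33 (SE 0.14), while Adam10 and Adam17 overlapped between the groups. Lfng, a glycosyltransferase that tunes the response of receptors to Delta-like and Jagged ligands, was abundant, at 82.7 to 98.4 RPKM in NC and 93.4 to 99.5 RPKM in HE. Dtx3, of the Deltex family of ubiquitin ligases, had 54.5 to 66.6 RPKM in NC and 17.8 to 45.9 RPKM in HE, with HE3 the lowest, and a log2 fold change of -0.91 (SE 0.34), or -0.48 without HE3.

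**Figure D5:**
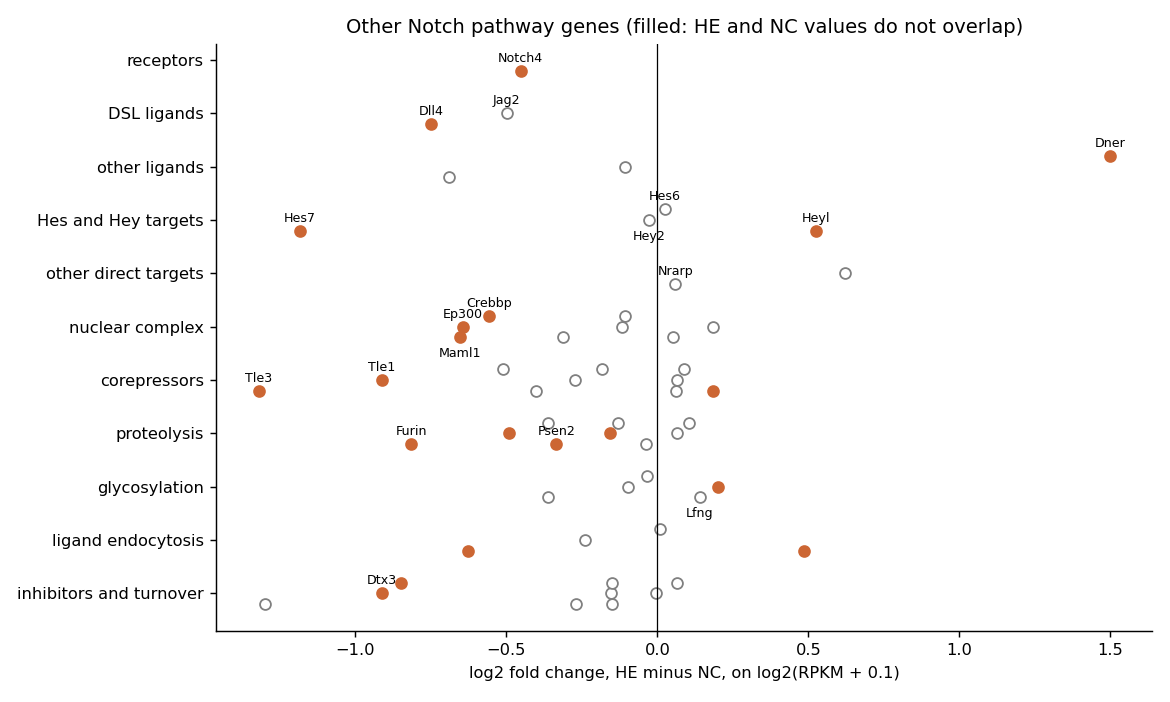
Log2 fold change of HE against NC on log2(RPKM + 0.1) (horizontal axis) for other tested Notch pathway genes, grouped by role (vertical axis), with filled circles where the HE and NC values do not overlap. The filled circles comprise 15 genes below 0, with Tle3 at -1.32, and 5 above, with Dner at 1.498, and none passed the adjusted test.

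Genes with the most similar course over the 6 samples were sought for Notch1, Hes5 and Jag1 among tested protein-coding genes, by the root-mean-square difference between centred log2(RPKM + 0.1) values. For Notch1 these were Zfp609 (0.04), Frg2f1 (0.05) and Jade1 (0.06), all of which were lowest in HE3. For Jag1 they were Klhl4 (0.12), Ccnd1 (0.13) and Ercc6l (0.13), all highest in HE3, where Ccnd1, which encodes cyclin D1, reached 489 RPKM against 155 to 218 RPKM in the other samples. For Hes5 they were Stap2 (0.08), Muc6 (0.09) and Nod2 (0.10), each under 1 RPKM. These are descriptions over 6 samples that share their libraries and depth.

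Progenitor markers and markers of other cells also differed between samples. Of 10 neural stem and progenitor markers 4 lay wholly below NC in HE, among them Sox2 (195 to 209 RPKM in NC and 97.3 to 176 RPKM in HE), against 17.9% of all tested genes. The others overlapped, among them Nes and Pax6, whose group means were alike, and Fabp7, with a mean of 1059 RPKM in NC and 1656 RPKM in HE. Summed RPKM of the 10 overlapped too (3089 to 3727 in NC, 2957 to 4688 in HE). Of 8 neuron markers 3 lay wholly above NC, against 14.8% of all tested genes, with overlapping sums (47.0 to 78.0 in NC, 53.6 to 69.5 in HE). Summed RPKM of 8 microglia and macrophage markers was 0.377 to 0.882 in NC and 1.72 to 9.19 in HE, highest in HE3. Only 3 of these 8 had enough reads to be tested, and 1 of the 3 lay wholly above NC, against 14.8% of all tested genes. C1qa, C1qb, C1qc, Ptprc and Tyrobp were all at 0 in NC2, and Ptprc was at 0.054 RPKM or less in every sample. Summed mural and mesenchymal markers were 64.0 to 158 in NC and 98.9 to 210 in HE. Astrocyte markers summed to 1279 to 1563 in NC and 813 to 1283 in HE, and oligodendrocyte lineage markers to 289 to 319 in NC and 313 to 514 in HE. The oligodendrocyte sum was highest, and the astrocyte sum lowest, in HE3, the sample with the highest Jag1 and the lowest Dll1. The part of these cells in the Notch values was not tested.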

How the data were processed

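Strand-specific RNA-Seq libraries (TruSeq, with dUTP in the second strand) were made from 3 NC and 3 HE samples. The authors filtered reads, aligned them with TopHat2 to mm10 and counted them per gene. The counting tool, annotation and use of strand in counting are not given in the sources used here. The deposited table holds the authors' read counts, which are not normalized and have commas between digits, and RPKM, for which the authors divided each count by the length of the gene and by all reads counted in that sample (the largest difference from this formula was 4.99e-07). Because it is not stated whether counting used the strand, annotated genes that overlap Notch1, Notch2, Notch3 and Hey1 could share reads with them.

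Samples were grouped by their titles. A gene entered the test with at least 15 reads in all and, in 3 or more samples, a rate equal to 10 reads at the median depth (13952 of 22048 genes). The test was limma 3.58.1 (R 4.3.3) on log2(RPKM + 0.1) with its mean-variance trend, group as the only term and Benjamini-Hochberg adjustment over all tested genes. The pseudocount understates changes of low genes. RPKM was the tested unit because the deposited count columns have commas. With the commas removed, the counts served for the filter and for voom, which was an alternative. The authors' count test (DESeq2) was not repeated. The fit was tested on simulated data. Alternatives were a pseudocount of 1, median-of-ratios scaling, looser and stricter filters, voom, robust empirical Bayes, sample weights, a replicate block and each sample left out. Removal of the length trend, and every alternative for the count of members with separate groups, were added after seeing the data. An exact permutation test, two-sided, was used for the RPKM of single members. Coordinates and sequences are from RefSeq GRCm38.p6, matched by symbol.

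All 10 members were named. Other pathway genes were named if the groups did not overlap and the unadjusted p was under 0.05, at most 5 per role. Paralogs of members, Nrarp and Lfng were named whatever their values. Tle2, Tle4, Maml2, Adam10 and Adam17 were added as comparisons after their values were seen. Results of some single genes are not reported here. Members and lists were chosen with earlier results of these data known.

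Same-numbered NC and HE samples had correlations of deviations from the group mean of 0.156, 0.087 and 0.060. Those of unlike number had -0.076 to -0.001. The sample titles do not state pairs, so the numbers were not taken as pairs in the main fit, and a replicate block was an alternative. Depth was 16078675 to 19137059 reads per sample, and limits from depth cover counting error only.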

Additional observations from a re-analysis of the deposited data

How the results depend on the processing

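No member passed an adjusted p of 0.05 in limma under any of the 16 alternatives (adjusted p 0.102 to 0.953). Of 160 member values, 155 kept their sign and 5 reversed: Dll1 was 0.059 with sample weights and Dll3 0.13, and without HE3 Dll1 was 0.038, Dll3 0.23 and Hey1 0.013 (log2). With each sample left out in turn the ranges were -0.78 to 0.038 for Dll1, -0.80 to 0.23 for Dll3 and -0.31 to 0.013 for Hey1, and Notch1 stayed between -0.73 and -0.36. Calls over all genes were 876 with sample weights (268 with a log2 fold change of at least 1), and 0 to 105 (0 to 103 with that fold change) with each sample left out, the highest without NC3. The 4 pathway genes then called with sample weights were Dner, Furin, Tle1 and Tle3, and without NC3 it was Dtx3l alone. The number of other pathway genes lower at an unadjusted p under 0.05, 11 with all samples, was 4 to 16 with each left out, the lowest without NC1 or NC2. Genes of either direction at that level over the whole table fell too, from 2858 to 1342 without NC1 and 1638 without NC2. The number of members with HE wholly below NC was 1 with the length trend removed, against 15.7% of all tested genes. With median-of-ratios scaling it was 3, against 16.4% of all tested genes. The causes were not tested. With the replicate block, each member had the same log2 fold change, 0 genes were called, and Jag1 had an unadjusted p of 0.0237 and an adjusted p of 0.174 in limma. Each sample's deviations correlated best with those of its own number, a hint from the data only. Hes5 and Dll3 in HE3, with 47 and 46 reads, are the members that depth limits most.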
